A study of Homo sapiens with 6 samples.

Results

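Nuclear genes for the import of proteins into mitochondria were examined in GABPA ChIP-seq peak lists of the human melanoma line A-375, an established line. The 41 genes are those of a list of import components, set against the 19974 protein-coding genes of chromosomes 1 to 22 and X. A peak was assigned to a gene when its summit was at most 1 kb from 1 of the ends of the gene's RefSeq span on GRCh38, and a gene with such a summit is called marked. The tested cells carry a knockout in the B1 subunit of GABP (gene GABPB1, exon 2) and a later knock-in of TERT, the enzyme part of telomerase, and are called the B1 knockout here. The controls are a line knocked out at ROSA26, which is commonly targeted as a neutral locus, and unedited parental cells. Edited lines were grown as clones, per the labels' protocols, and each condition has 1 ChIP library, so no difference below has a replicate check or a test. The knockout, the knock-in and the clone cannot be told apart. The lists hold 1660 B1 knockout, 3857 ROSA26 and 3024 parental peaks, and the usual background under their peaks was 9.86, 14.2 and 15.4 reads in that order. Depth and fragment length both raise this value, and in the B1 knockout it was 64.0% of the parental one.

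GABP joins GABPA, an ETS protein that binds DNA at a GGAA core, to a B subunit that carries the activation domain and can bring GABP units together on neighbouring sites. Nearly all mitochondrial proteins are encoded in the nucleus and made in the cytosol. They enter through the TOM complex of the outer membrane and are then handed to small TIM chaperones of the intermembrane space, to the TIM23 or TIM22 translocase of the inner membrane, or to the SAM complex, which builds outer membrane barrels. An ATP-driven motor pulls presequence proteins into the matrix, where peptidases cut the presequence off and chaperones fold the product. GABP has long been tied to genes of mitochondrial function.

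Import genes carried a GABPA peak more often than protein-coding genes as a whole in each of the 3 lists. Of the 41 genes, 16 were marked in the B1 knockout list (39.0%, 95% exact Clopper-Pearson interval 24.2 to 55.5), 23 in the ROSA26 list (56.1%, 39.7 to 71.5) and 22 in the parental list (53.7%, 37.4 to 69.3). Over all protein-coding genes the shares were 9.32%, 18.5% and 15.5% in the same order. Both controls marked 22 import genes, where 15.3% of all genes had a peak in both. Of these 22, 16 also had a B1 knockout peak (72.7%, 49.8 to 89.3) and 6 had none, against 60.4% of the 3063 genes that both controls marked. No import gene was marked in the B1 knockout alone. TIMM9 was the 1 member with a ROSA26 peak and no parental peak, among 23 marked in ROSA26, where 17.1% of all ROSA26-marked genes had no parental peak. None of the 22 members marked in the parental list lacked a ROSA26 peak, against 0.906% of all genes marked in the parental list. The intervals cover counting error over genes only. The lists differ in length. With lists shortened to their 1660 peaks of highest −log10 p, 16 members were marked in the B1 knockout, 17 in ROSA26 and 14 in parental cells.

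**Figure D1:**
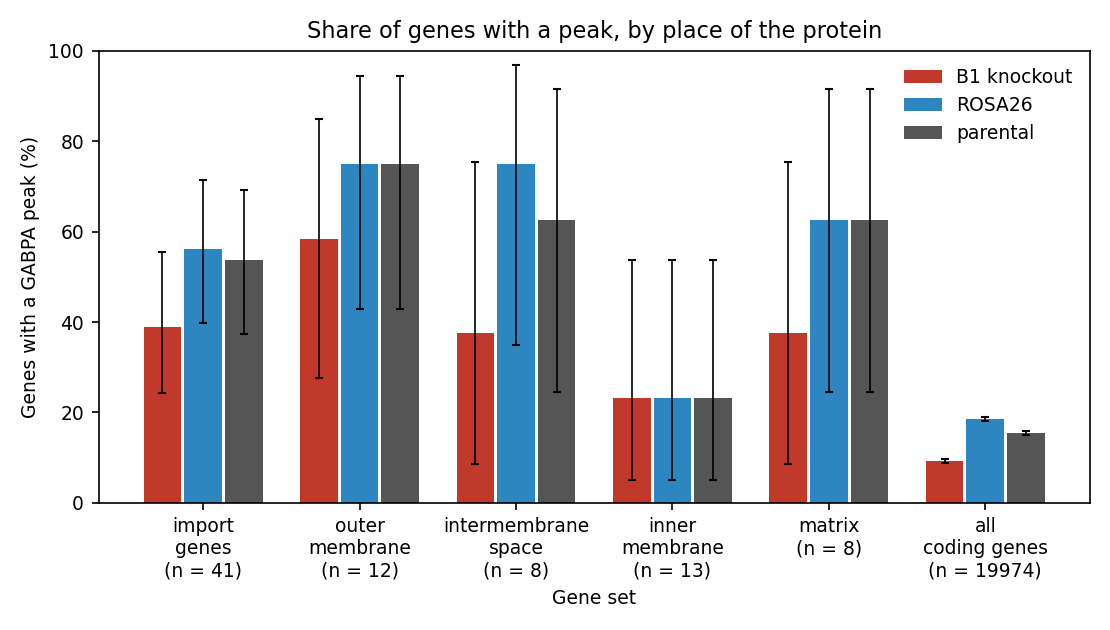
Share of genes with a GABPA peak (%, vertical axis) in the B1 knockout, ROSA26 and parental lists, for the 41 import genes, the 4 places where their proteins work and all 19974 protein-coding genes; bars are shares and lines 95% exact intervals. The outer membrane bars stand at 58.3, 75.0 and 75.0% and the inner membrane bars at 23.1% in each list, with wide intervals that overlap.

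Counts are given by where the proteins of the members work. Of 12 outer membrane genes, 7 were marked in the B1 knockout, 9 in ROSA26 and 9 in parental cells. Of 8 intermembrane space genes, 3, 6 and 5 were marked in that order, and of 8 matrix genes 3, 5 and 5. Of 13 inner membrane genes, 3 were marked in each of the 3 lists, and they were the same genes, TIMM17A, TIMM23 and TIMM29. That is 23.1%, beside 9.32% of all protein-coding genes in the B1 knockout, 18.5% in ROSA26 and 15.5% in parental cells. The other compartments lay at 37.5% or more in every list. The shares marked in both controls were thus higher for the outer membrane than for the inner membrane, but the parental intervals (42.8 to 94.5% and 5.04 to 53.8%) overlap. No test was made of this difference, since the members were chosen with results in view. Among members marked in both controls, a B1 knockout peak was found for 7 of 9 outer membrane, 3 of 5 intermembrane space, 3 of 3 inner membrane and 3 of 5 matrix genes. The intervals of these shares all include the 60.4% of all genes. The matrix share depends on how PMPCB and the pair HSPD1 and HSPE1 are counted, as given below.

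**Figure D2:**
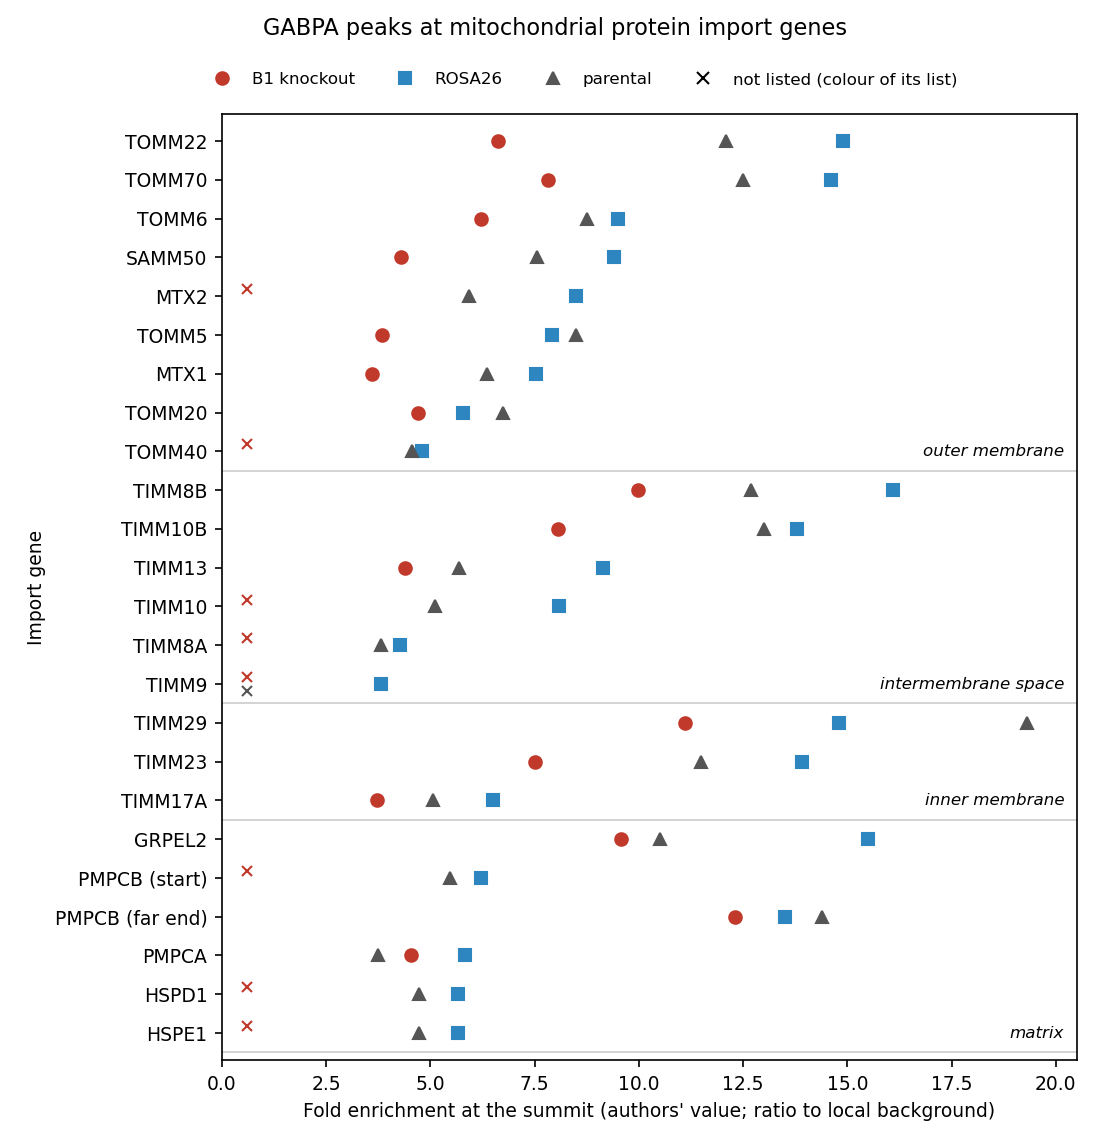
Fold enrichment at the summit (horizontal axis, the authors' ratio to local background) for each of the 23 marked import genes in the B1 knockout, ROSA26 and parental lists, by place of the protein; a cross marks a list without a peak. PMPCB has a row for each end of the gene, and its start row lacks a B1 knockout peak.

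The fold enrichment given from here on is the value the authors give each peak, a ratio of reads piled up over its summit to local background. Folds are set side by side for the 3 lists and no change is read from them, since the lists were called separately and their backgrounds differ. Within a list they rank peaks. Among the marked members the median fold was 6.42 in the B1 knockout (16 genes), 8.48 in ROSA26 (23) and 7.15 in parental cells (22), beside 6.04, 7.11 and 7.03 over all marked genes. Member folds spanned 3.60 to 12.3, 3.81 to 16.1 and 3.75 to 19.3. The number of reads at the summit, recovered from fold and p-value, spanned 46 to 252, 57 to 475 and 62 to 442. The medians of the members thus lay a little above those of all marked genes in each list, and no member had the highest fold of a list.

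Among the outer membrane receptors, which bind incoming proteins at the surface, TOMM20, TOMM22 and TOMM70 were all marked in the 3 lists. Of all protein-coding genes, 9.32% were marked in the B1 knockout, 18.5% in ROSA26 and 15.5% in parental cells. TOMM70, a receptor for carrier proteins (chromosome 3, 100363431 to 100401089), had folds of 7.83 in the B1 knockout, 14.6 in ROSA26 and 12.5 in parental cells. Its summits held 126, 221 and 261 reads and lay 100, 121 and 72 bp upstream of the RefSeq start. TOMM22, the central receptor (chromosome 22, 38681957 to 38685421), had folds of 6.63, 14.9 and 12.1 and summits 23, 16 and 21 bp upstream of its start. TOMM20 (chromosome 1, 235109341 to 235128837) had folds of 4.71, 5.77 and 6.75, over a local background above the usual one of each library (16.1 reads in the B1 knockout, 33.0 in ROSA26 and 24.4 in parental cells). The receptors thus ranged from near the middle of each control list (TOMM20) to its upper part (TOMM22 and TOMM70).

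The pore and the small subunits of TOM were less uniform. TOMM40, the barrel through which proteins pass (chromosome 19, 44891254 to 44903689), had no B1 knockout peak and weak control peaks, with folds of 4.79 in ROSA26 and 4.55 in parental cells. Those summits lay 624 and 617 bp upstream of the start, farther out than for any other member with a RefSeq start except at the far end of PMPCB. TOMM40L, a paralog of TOMM40, had no peak in any list. TOMM5 (chromosome 9, 37588413 to 37592597) and TOMM6 (chromosome 6, 41787694 to 41789895), small subunits that steady the complex, were marked throughout. TOMM5 had folds of 3.83, 7.92 and 8.50 in the B1 knockout, ROSA26 and parental lists, and TOMM6 had 6.21, 9.49 and 8.76. TOMM7, another small subunit, and TOMM34, a cytosolic co-chaperone of preproteins counted here with the outer membrane genes, had no peak. The summit nearest to TOMM34 lay 6060 bp from the end of its span, and TOMM34 was the 1 unmarked member with a summit within 10 kb.

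Genes of the sorting and assembly machinery were all marked in both controls (3 of 3, interval 29.2 to 100%), beside 15.3% of all protein-coding genes. SAMM50, the core that inserts barrel proteins (chromosome 22, 43955442 to 43996529), had folds of 4.30 in the B1 knockout, 9.40 in ROSA26 and 7.55 in parental cells, with summits 81, 79 and 104 bp upstream of the start. MTX1, a metaxin subunit (chromosome 1, 155208695 to 155213839), had folds of 3.60, 7.52 and 6.35. Its summits lay 528, 526 and 528 bp downstream of a RefSeq start of MTX1 and 47 bp (ROSA26) upstream of the start of THBS3, a thrombospondin gene on the other strand. MTX2, its partner (chromosome 2, 176269442 to 176338025), had no B1 knockout peak, and had control folds of 8.48 in ROSA26 and 5.92 in parental cells. The ROSA26 value lay between those of SAMM50 and MTX1 and the parental value below both.

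The RefSeq windows of TOMM70 and MTX2 are shown as the outer membrane genes with the highest parental fold among those with and without a B1 knockout peak. Each window runs from 250 bp before to 50 bp after the start on GRCh38.p14, printed 5′ to 3′ on the gene's strand. Capitals mark the ETS motif CCGGAAG or its reverse complement CTTCCGG. The TOMM70 window (chr3:100401040-100401339, minus strand) holds 2 motifs, with centres 85 bp apart, and the MTX2 window (chr2:176269192-176269491, plus strand) holds 1.
TOMM70: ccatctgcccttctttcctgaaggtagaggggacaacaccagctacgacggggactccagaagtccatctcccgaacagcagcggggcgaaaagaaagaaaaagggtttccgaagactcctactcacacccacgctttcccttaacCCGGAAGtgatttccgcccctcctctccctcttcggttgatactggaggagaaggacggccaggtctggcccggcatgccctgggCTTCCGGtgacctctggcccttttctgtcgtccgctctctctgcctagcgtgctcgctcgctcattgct
MTX2: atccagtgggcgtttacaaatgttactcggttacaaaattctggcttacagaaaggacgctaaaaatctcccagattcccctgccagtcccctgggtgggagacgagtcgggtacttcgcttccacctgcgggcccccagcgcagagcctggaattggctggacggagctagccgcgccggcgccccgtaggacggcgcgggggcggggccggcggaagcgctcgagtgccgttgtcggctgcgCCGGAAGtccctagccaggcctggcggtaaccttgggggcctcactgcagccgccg

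The small TIM chaperones, which carry hydrophobic proteins across the intermembrane space, were all 6 marked in ROSA26, 5 in parental cells and 3 in the B1 knockout. TIMM8B (chromosome 11, 112084800 to 112086756) had folds of 9.97 in the B1 knockout, 16.1 in ROSA26 and 12.7 in parental cells. Its summits also lay within 1 kb of the start of SDHD, a subunit of succinate dehydrogenase, 66 bp upstream of it in ROSA26. TIMM10B (chromosome 11, 6481501 to 6484681), the small TIM of the TIM22 complex, had folds of 8.05, 13.8 and 13.0 and shared its summits with ARFIP2 on the other strand. TIMM13 (chromosome 19, 2425625 to 2427586) had folds of 4.40, 9.13 and 5.68. These 3 genes were marked in every list.

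The other small TIMs had no B1 knockout peak. TIMM10 (chromosome 11, 57528464 to 57530754), which forms a ring with TIMM9, had folds of 8.09 in ROSA26 and 5.10 in parental cells, with 185 and 147 reads at the summit. TIMM8A (chromosome X, 101345661 to 101348742), the partner of TIMM13 and the gene of a deafness and dystonia syndrome, had folds of 4.28 and 3.81. TIMM9 (chromosome 14, 58408494 to 58427531) had a ROSA26 peak alone, with a fold of 3.81 and 57 reads. TIMM9 and TIMM8A were in the lower part of the ROSA26 list, where 26.1 and 32.6% of peaks had lower folds. TIMM10 lay above its median of 6.02. CHCHD4 and GFER, the oxidoreductase and the sulfhydryl oxidase of the disulfide relay that traps small cysteine proteins here, had no peak in any list, and their nearest summits lay over 10 kb from their ends.

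TIMM10B and TIMM10 are shown as the intermembrane space genes with the highest parental fold among those with and without a B1 knockout peak. The TIMM10B window (chr11:6481251-6481550, plus strand) holds 1 motif. The TIMM10 window (chr11:57530705-57531004, minus strand) holds 2, with centres 42 bp apart, and it is the 1 member window with more than 1 motif whose gene had no B1 knockout peak.
TIMM10B: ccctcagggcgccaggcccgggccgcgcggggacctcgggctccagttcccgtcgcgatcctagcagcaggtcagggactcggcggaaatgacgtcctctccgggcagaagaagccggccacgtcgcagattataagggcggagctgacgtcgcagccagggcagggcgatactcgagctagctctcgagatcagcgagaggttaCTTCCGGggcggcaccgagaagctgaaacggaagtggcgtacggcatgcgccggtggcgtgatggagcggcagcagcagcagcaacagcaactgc
TIMM10: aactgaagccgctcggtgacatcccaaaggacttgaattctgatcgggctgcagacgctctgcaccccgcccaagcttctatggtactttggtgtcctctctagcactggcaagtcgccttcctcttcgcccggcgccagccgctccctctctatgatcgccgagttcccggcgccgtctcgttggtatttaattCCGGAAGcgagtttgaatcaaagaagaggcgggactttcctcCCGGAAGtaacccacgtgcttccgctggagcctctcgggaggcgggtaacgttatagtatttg

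The inner membrane held the largest parental fold of the 41 genes and also most of the members without a peak. TIMM29, a subunit of the TIM22 carrier translocase (chromosome 19, 10928811 to 10930254), had folds of 11.1 in the B1 knockout, 14.8 in ROSA26 and 19.3 in parental cells. Its summits held 252, 475 and 442 reads, lay 101, 105 and 101 bp upstream of the start, and were shared with YIPF2 on the other strand. TIMM23, the presequence channel (chromosome 10, 45972489 to 46003742), had folds of 7.50, 13.9 and 11.5. TIMM23 has a near copy, TIMM23B, whose RefSeq window was identical to that of TIMM23 at 289 of 294 aligned bases (98.3%) and which was marked with folds of 6.50, 14.3 and 11.4, so reads may have been divided between them and the values of both are uncertain. TIMM17A, a partner of TIMM23 in the channel (chromosome 1, 201955503 to 201970664), had folds of 3.72, 6.51 and 5.06.

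The other 10 inner membrane genes had no peak within 1 kb of an end in any list. They are TIMM17B, the X-linked paralog of TIMM17A, TIMM50, the receptor of TIM23, TIMM21, which docks TIM23 to TOM, and TIMM22, the pore of the carrier translocase. The motor genes TIMM44, PAM16, DNAJC15 and DNAJC19, which tether the matrix chaperone and tune its ATP cycle, and IMMP1L and IMMP2L, the subunits of the inner membrane peptidase, complete the list. No unmarked member of any compartment had a summit anywhere inside its span. Absence from a list means that no peak passed the authors' peak calling and does not show that GABPA was absent.

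TIMM29 is shown as the inner membrane gene with the highest parental fold, and DNAJC15 as an unmarked gene whose window holds the motif, chosen after its values were seen. The TIMM29 window (chr19:10928561-10928860, plus strand) and the DNAJC15 window (chr13:43023336-43023635, plus strand) hold 1 motif each. The motif centre of DNAJC15 lies 96 bp upstream of the start.
TIMM29: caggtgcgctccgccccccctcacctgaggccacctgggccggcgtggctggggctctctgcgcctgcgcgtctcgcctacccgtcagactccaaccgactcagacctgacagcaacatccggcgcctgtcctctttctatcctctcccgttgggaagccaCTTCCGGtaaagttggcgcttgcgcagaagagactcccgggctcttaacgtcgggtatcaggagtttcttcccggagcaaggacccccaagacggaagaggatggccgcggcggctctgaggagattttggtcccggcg
DNAJC15: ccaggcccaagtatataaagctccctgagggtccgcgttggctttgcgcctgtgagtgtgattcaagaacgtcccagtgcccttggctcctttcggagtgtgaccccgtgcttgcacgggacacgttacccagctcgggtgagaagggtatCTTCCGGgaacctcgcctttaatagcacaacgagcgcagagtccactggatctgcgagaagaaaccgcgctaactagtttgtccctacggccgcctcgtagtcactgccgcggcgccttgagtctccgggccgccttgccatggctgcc

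In the matrix, GRPEL2 and PMPCA were marked at their starts in every list. GRPEL2, a nucleotide exchange factor of the motor chaperone (chromosome 5, 149345499 to 149354583), had folds of 9.57 in the B1 knockout, 15.5 in ROSA26 and 10.5 in parental cells, with 177, 397 and 339 reads. PMPCA, the substrate-binding subunit of the processing peptidase (chromosome 9, 136410658 to 136423761), had folds of 4.54, 5.84 and 3.75. Its summits lay 105, 130 and 124 bp downstream of its start and were shared with ENTR1 on the other strand. In the parental list PMPCA had the lowest fold of the 22 marked members, below each of the 6 that had no B1 knockout peak. GRPEL1, the paralog of GRPEL2, HSPA9, the motor chaperone itself, and MIPEP, which trims the cut proteins further, had no peak. Of the 7 genes of the import motor (TIMM44, PAM16, DNAJC15, DNAJC19, HSPA9, GRPEL1 and GRPEL2), 1 was marked (14.3%), GRPEL2, in each of the 3 lists, which is near the shares of all protein-coding genes (9.32% in the B1 knockout, 18.5% in ROSA26 and 15.5% in parental cells).

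HSPD1 and HSPE1 encode the matrix chaperonin and its co-chaperonin and stand head to head on chromosome 2 (197486584 to 197500274 and 197500379 to 197503449). They shared 1 peak in each control, with folds of 5.65 in ROSA26 and 4.72 in parental cells, and had none in the B1 knockout list. The ROSA26 summit lay 162 bp inside HSPD1 and 267 bp upstream of the start of HSPE1, and the parental summit 175 and 280 bp from them. The 22 members marked in both controls therefore include this pair on 1 peak, and counted as 1 the share with a B1 knockout peak is 76.2% (16 of 21). The matrix share is then 75% (3 of 4).

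PMPCB, the catalytic subunit of the processing peptidase (chromosome 7, 103297435 to 103347542, plus strand), had 2 separate peaks in the controls. The peak at its start had folds of 6.22 in ROSA26 and 5.47 in parental cells, with 142 and 112 reads and summits 4 and 15 bp upstream of the start, and was absent from the B1 knockout list. The peak that places PMPCB among the genes with a B1 knockout peak lay at its far end, with folds of 12.3 in the B1 knockout, 13.5 in ROSA26 and 14.4 in parental cells. Those summits lay 50249, 50205 and 50203 bp from the PMPCB start, and the ROSA26 summit was 3 bp from a RefSeq start of PSMC2, an ATPase of the proteasome that begins where PMPCB ends. When RefSeq starts were used in place of either end, 15 of 22 import genes marked in both controls had a B1 knockout peak (68.2%, 45.1 to 86.1), against 60.4% of 3088 genes measured the same way, and PMPCB moved to the genes without one. The matrix share was then 40% (2 of 5, 5.27 to 85.3). Genes without a RefSeq start in the reference were still counted by either end, TOMM5 and TIMM8B among these 15. Of the 19974 protein-coding genes, 15813 had a RefSeq window and thus a start.

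**Figure D3:**
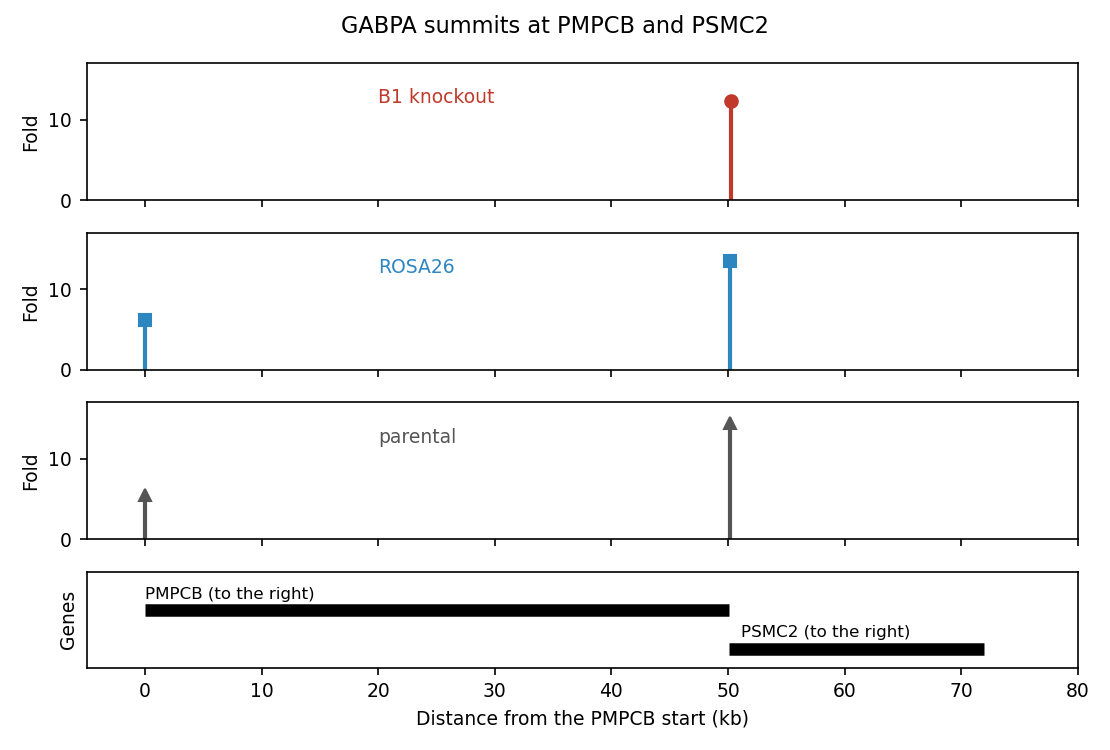
Fold enrichment (vertical axes, 1 panel per list) of each summit against distance from the PMPCB start (kb, horizontal axis), with the spans of PMPCB and PSMC2 below. The B1 knockout list has the peak at the start of PSMC2 and none at the PMPCB start, where ROSA26 and parental lists have folds of 6.22 and 5.47.

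The windows of PMPCB and HSPE1 are shown for the matrix by the same rule, and that of GRPEL2 because it holds the most motifs of all member windows, chosen after its values were seen. PMPCB meets the rule through its far-end peak alone. The window printed is that of its start, whose peak was absent from the B1 knockout list. Counted by starts, GRPEL2 (parental fold 10.5) would be the matrix gene with a B1 knockout peak to show. The PMPCB window (chr7:103297185-103297484, plus strand) holds 1 motif, that of HSPE1 (chr2:197500129-197500428, plus strand) none, and that of GRPEL2 (chr5:149345249-149345548, plus strand) 3. A window of HSPD1 covers 204 bases of the HSPE1 window on the other strand and holds none either.
PMPCB: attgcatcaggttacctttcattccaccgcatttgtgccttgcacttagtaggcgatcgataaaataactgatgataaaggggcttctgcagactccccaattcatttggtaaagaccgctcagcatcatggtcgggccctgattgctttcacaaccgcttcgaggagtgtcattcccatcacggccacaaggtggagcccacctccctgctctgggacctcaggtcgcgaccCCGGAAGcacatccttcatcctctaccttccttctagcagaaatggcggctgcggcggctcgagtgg
HSPE1: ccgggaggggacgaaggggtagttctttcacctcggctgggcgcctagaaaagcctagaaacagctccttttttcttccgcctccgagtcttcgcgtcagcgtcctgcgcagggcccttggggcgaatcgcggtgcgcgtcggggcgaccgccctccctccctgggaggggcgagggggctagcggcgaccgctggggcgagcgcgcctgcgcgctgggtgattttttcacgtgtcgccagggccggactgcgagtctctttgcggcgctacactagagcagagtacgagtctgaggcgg
GRPEL2: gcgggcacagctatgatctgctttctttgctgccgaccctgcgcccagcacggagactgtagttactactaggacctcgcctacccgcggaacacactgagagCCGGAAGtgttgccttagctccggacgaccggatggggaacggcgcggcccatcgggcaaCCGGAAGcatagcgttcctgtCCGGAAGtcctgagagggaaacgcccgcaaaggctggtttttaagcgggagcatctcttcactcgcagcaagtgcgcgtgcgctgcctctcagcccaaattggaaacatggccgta

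The motif was more frequent in the windows of marked members than of unmarked ones. RefSeq windows were found for 38 of the 41 genes, and TOMM5, TIMM8B and GRPEL1 had none in the table. The 7-letter motif, CCGGAAG on either strand, was in the windows of 10 of 14 genes with a peak in all 3 lists, 2 of 6 genes marked in both controls without a B1 knockout peak (MTX2 and TIMM10) and 3 of 17 unmarked genes (TOMM34, DNAJC15 and MIPEP). PMPCB counts among the 10, although its start carried no B1 knockout peak. Over all protein-coding genes the shares were 64.0% of those marked in both controls with a B1 knockout peak, 44.9% of those without one and 7.56% of those with no peak, and 16.5% of all genes with a window. Its inner 6 letters, CGGAAG, which every CCGGAAG contains, were in 12 of 14, 3 of 6 and 7 of 17 member windows, against 80.3, 64.4 and 19.5% of all genes in the same states. A match is a description of letters and not a measured site.

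Several motifs in a window were found for 5 members, TOMM6, TOMM70, TIMM10, TIMM23 and GRPEL2, all marked in both controls. That is 5 of 20 such members with a window, against 15.7% of all genes marked in both controls. Their neighbouring centres lay 21 to 85 bp apart. In the 12 members with a motif and a parental peak, a motif centre lay within 1 to 29 bp of a parental summit, and in ROSA26 within 2 to 47 bp. Within 50 bp the counts were 12 of 12 in both controls, against 78.1% of all such genes in ROSA26 and 77.5% in parental cells. In the B1 knockout it was 9 of 10, against 77.4%, the exception being PMPCB. Of the marked members with a window, SAMM50, MTX1, TOMM40, TIMM8A, TIMM9 and HSPD1 held neither form of the motif, and TIMM17A, PMPCA and HSPE1 held the shorter form alone. The summits of TOMM40, MTX1, PMPCA, HSPD1 and HSPE1 lay outside the windows searched.

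**Figure D4:**
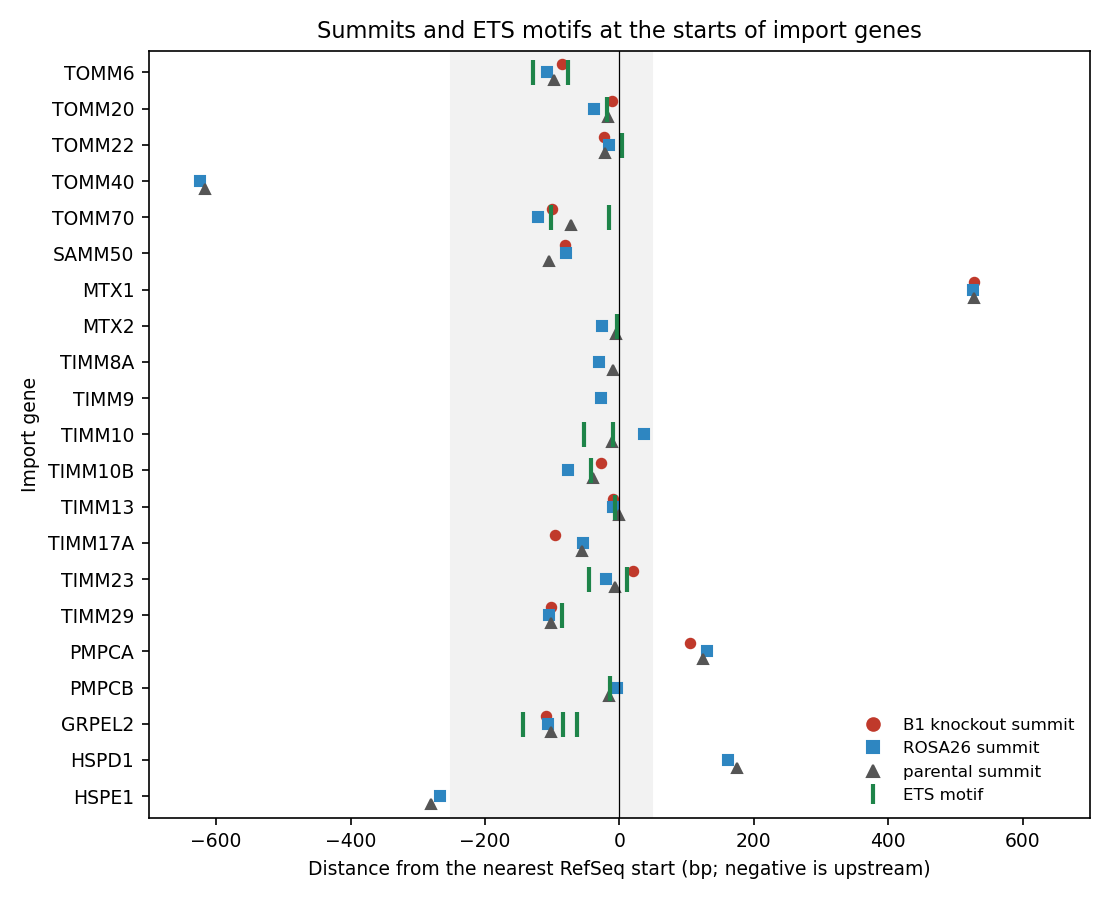
Distance of each summit from the nearest RefSeq start (bp, horizontal axis, negative is upstream) in the B1 knockout, ROSA26 and parental lists for the marked import genes with a RefSeq window, with centres of CCGGAAG motifs as green ticks and the searched window shaded. Most summits lie upstream and close to a tick, and those of TOMM40, MTX1, PMPCA, HSPD1 and HSPE1 lie away from the start.

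The positions of the summits were alike between lists. For the 16 members with a peak in the B1 knockout and parental lists, the summits were 0 to 48 bp apart (median 15.0), beside a median of 19.0 bp over all 1845 such genes. Between the B1 knockout and ROSA26 the median was 23.5 bp, and between ROSA26 and parental cells 10.5 bp over 22 genes. Many members shared a summit with a neighbour. In the B1 knockout 9 of 16 marked members did (56.2%), in ROSA26 13 of 23 (56.5%) and in parental cells 12 of 22 (54.5%), against 47.0, 42.6 and 43.9% of all marked genes. The neighbour's own start lay near the summit for LNP1 beside TOMM70, THBS3, SDHD, KIAA0586 beside TIMM9, ARFIP2, YIPF2, ENTR1 and PSMC2. The ends of PRICKLE4 beside TOMM6, BTK beside TIMM8A and LMNB2 beside TIMM13 were the far ends of those genes. A peak between neighbours cannot be given to 1 of them from these lists.

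Whether a member had a B1 knockout peak went with the strength of its control peak. The 16 members with one had parental folds of 3.75 to 19.3 (median 9.61), and the 6 without had 3.81 to 5.92 (median 4.72). In 4 equal bins of parental fold over all genes marked in both controls, from weakest to strongest, the members with a B1 knockout peak were 1 of 3, 4 of 8, 3 of 3 and 8 of 8. The shares of all genes in those bins were 8.36, 48.3, 87.3 and 97.8%. PMPCB is counted in the strongest bin through its far-end peak, and its start peak (parental fold 5.47) would place it in the second bin, without a B1 knockout peak. At these shares 14.6 of the 22 members (66.2%) would have a B1 knockout peak, beside the 16 listed, and with bins of ROSA26 fold 15.3 (69.5%). Among the 16, the order of folds was similar in the lists, with a Spearman rho over genes of 0.87 between the B1 knockout and parental lists, 0.75 between the B1 knockout and ROSA26, and 0.78 between the controls. The genes share the 3 libraries, and no p is given.

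**Figure D5:**
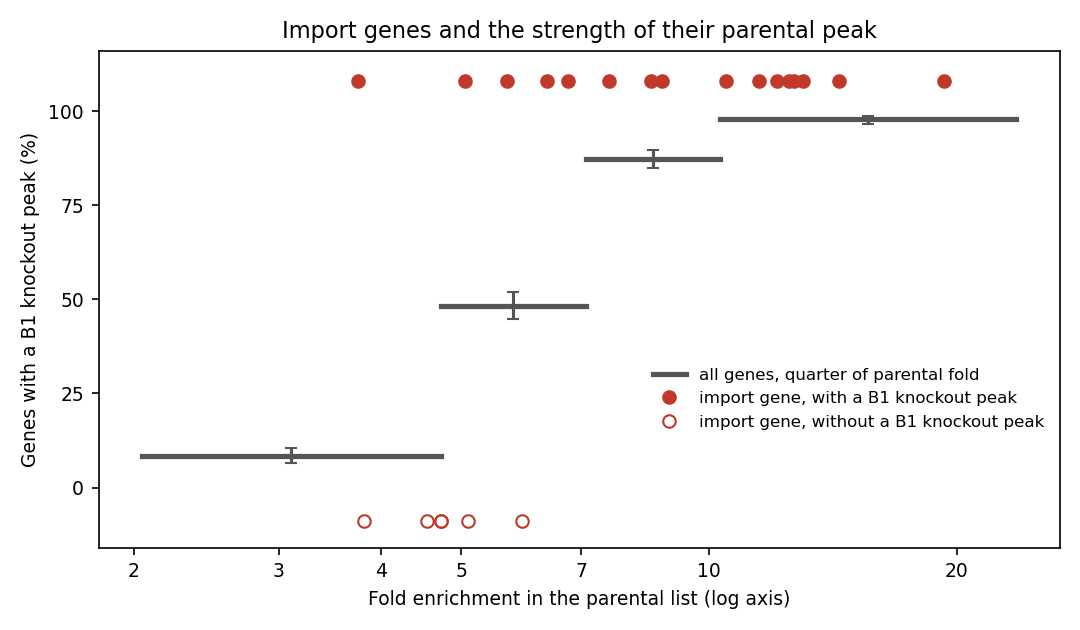
Share of all genes marked in both controls that had a B1 knockout peak (%, vertical axis, lines with 95% exact intervals) in 4 equal bins of the parental fold (horizontal log axis). Filled points above the bins are the 16 import genes with a B1 knockout peak and open points below are the 6 without, which lie between parental folds of 3.81 and 5.92; the vertical place of the points has no value.

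The order of control folds did not fully separate the members with and without a B1 knockout peak. MTX2 and TIMM10, with ROSA26 folds of 8.48 and 8.09, and the PMPCB start, with 6.22, had none, while PMPCA (5.84) and TOMM20 (5.77) had one at lower ROSA26 folds and TIMM17A had one at 6.51. A peak of the same fold over the shared background of the B1 knockout library would have a −log10 p of 50.8, 46.9 and 29.9 from the ROSA26 folds of MTX2, TIMM10 and the PMPCB start. From their parental folds it would be 27.4, 21.1 and 24.2. For TOMM40, TIMM8A and the HSPD1 and HSPE1 pair the values were 18.9, 15.4 and 25.8 from ROSA26 and 16.8, 12.1 and 18.2 from parental cells. The B1 knockout list itself reached down to a −log10 p of 4.74, with a 10th percentile of 13.6, and its members started at 15.4 (SAMM50). These values take the control fold as unchanged, and the listed members had other folds. Each member with a B1 knockout peak had a lower fold there than in ROSA26, and all but PMPCA a lower fold than in parental cells. The median over all marked genes of each list was also lower there (6.04, beside 7.11 in ROSA26 and 7.03 in parental cells). The same count over all genes was not made. The lists were called separately over differing backgrounds, and no change in binding is read from these folds. From its ROSA26 fold SAMM50 would have 59.8, beside the 15.4 listed. TIMM29 (122 beside 157) and TOMM20 (26.6 beside 27.1) were listed at higher values, although their folds too were lower in the B1 knockout than in ROSA26. Their local backgrounds in the B1 knockout were 21.6 and 16.1 reads, above the shared 9.86. A value above these limits is thus no proof that the peak would be found at that depth, and the part of depth in the missing peaks was not tested.

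Related genes outside the 41 gave similar counts. Of 29 genes for other insertases, peptidases, quality control proteases and cristae organisation, 9 were marked in the B1 knockout (31.0%), 18 in ROSA26 (62.1%) and 15 in parental cells (51.7%), against 9.32, 18.5 and 15.5% of all protein-coding genes. All 15 were marked in both controls, and 9 of them had a B1 knockout peak (60.0%, 32.3 to 83.7), close to the 60.4% of all genes. The strongest in the parental list were TIMMDC1, a complex I assembly factor related to TIMM23, with folds of 9.77, 17.9 and 15.0, ROMO1, a small inner membrane protein, with 8.63, 13.5 and 11.6, and TIMM23B, given above.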

How the data were processed

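GABPA ChIP-seq was analysed from 3 peak lists, 1 per condition, out of 6 samples in the labels. Values of the inputs alone were not analysed here. Reads were processed with Bowtie2, SAMtools and MACS2 on hg38, per the submitters' processing notes. For versions, thresholds, duplicate handling and the use of the input, the sources used here give nothing. The deposited lists give for each summit a fold (a ratio to local background), the −log10 of its p-value and q-value, and a score equal to 10 times the −log10 q-value with decimals dropped.

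Gene spans, starts and promoter windows come from RefSeq on GRCh38.p14, which shares the coordinates of hg38, written 1-based. Peaks off chromosomes 1 to 22 and X (8 B1 knockout, 17 ROSA26 and 5 parental) were not assigned to a gene. Reads and backgrounds under the summits were recovered by solving the MACS2 formulas for fold and Poisson p, and 99.9% or more of the peaks of each list were solved within 0.01. Both the gene assignment and this step were tested on simulated data. The simulated folds and p-values came from the same formulas, so that test cannot show whether the deposited values follow them. Intervals are exact Clopper-Pearson at 95%. Python 3.11.15, pandas 2.3.3, NumPy 2.4.6, SciPy 1.17.1 and Biopython 1.88 were used. The intervals cover counting error over genes and not over reads. PCR reads are not independent molecules, and read numbers are given without an interval.

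The members, compartments and lists were chosen with earlier results of these data known. All 41 genes are accounted for, every marked member is given with its folds, and sequences follow the rule stated beside them. Alternatives were a distance of 500 bp or 2 kb, a −log10 q of at least 10, lists of equal length, the nearest gene only, an overlap of at least 50%, other compartments and, added after the data were seen, RefSeq starts and 1 count for the HSPD1 and HSPE1 peak.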

Additional observations from a re-analysis of the deposited data

How the results depend on the processing

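Across 9 results and their alternatives, 57 of 63 values stayed within the main interval or within 1.5 times the main count. Equal list length moved 5 results. With it, 14 import genes were marked in parental cells in place of 22, and 3 were marked in ROSA26 without a parental peak in place of 1. The share of members marked in both controls with a B1 knockout peak became 92.9% (13 of 14) in place of 72.7%, and 100% for the outer membrane (7 of 7) and the matrix (2 of 2). These follow from the construction, since the weaker control peaks are left out. Counting a summit for the nearest gene only gave 2 genes marked in ROSA26 without a parental peak. Over all alternatives the share for all members ran from 68.2 to 92.9%. No paired analysis was possible because each condition has 1 ChIP library. The background of the B1 knockout library was lower than that of both controls, its part in the missing peaks was not tested, and an unlisted position may still be bound.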

Other observations

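The number of ETS motifs in the promoter window went with the share of genes that had a B1 knockout peak, over all genes and not for the import genes in particular. Among genes marked in both controls, 339 of 412 with 2 or more CCGGAAG motifs had a B1 knockout peak (82.3%, 95% exact interval 78.2 to 85.8). With 1 motif the share was 64.0% (61.0 to 66.9, 1072 genes), and with none 50.6% (47.6 to 53.5, 1141 genes). The median parental fold moved along with it, at 10.4, 7.42 and 5.87 in that order, and its part in the result was not tested. Among the import genes, 4 of the 5 with several motifs had a B1 knockout peak, and TIMM10 did not.

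Unmarked import genes with the motif are a small group to look at again. TOMM34, DNAJC15 and MIPEP hold CCGGAAG close to the start and had no listed summit in any library, where 7.56% of all protein-coding genes with no peak hold the motif in their window.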
